A study of Homo sapiens with 12 samples.

Results

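The 8 genes described here, SYCP2, SYCE2, SMC1B, STAG3, MEI1, TEX19, RIBC2 and ZFR2, form a set put together as genes of meiosis and their companions that HPV-positive (HPV+) cancers express. They were chosen by symbol, and each symbol had 1 row among the 20738 gene rows of the count table, so 8 of 20738 rows were members. RNA was sequenced from UPCI-SCC-090 and UM-SCC-47, both HPV+ lines of head and neck squamous cell carcinoma (HNSCC). Each line received 500 nM JQ1 or the solvent alone (0.1% DMSO), both for 72 h, which gave 4 groups of 3 libraries (12 in all). JQ1 blocks the bromodomains with which the BET proteins hold on to acetylated chromatin. All 4 groups are HPV+, so the data hold no HPV-negative cells and no normal mucosa, and each line stands for 1 tumor. Whether the 3 libraries of a group came from separate cultures was not stated, so the tests measure the spread between these libraries, which may be technical.

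In meiosis, sister chromatids are held by a cohesin ring with germ line subunits, and homologous chromosomes are zipped together by the synaptonemal complex after programmed double-strand breaks have been made. These genes are normally silent in somatic cells. Repressors that contain E2F6, MGA and MAX, together with DNA methylation, are known to keep many of them off. The E7 protein of HPV inactivates the retinoblastoma protein and frees E2F factors, and transcripts of SYCP2, STAG3 and SMC1B are known to mark HPV+ tumors of the head and neck.

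Of the 8 members, SYCP2 is part of the lateral element of the synaptonemal complex and SYCE2 of its central element. SMC1B and STAG3 are the meiotic forms of 2 cohesin subunits, and MEI1 is needed in mice for the double-strand breaks of meiosis. TEX19 belongs to a mammalian family whose mouse member Tex19.1 acts in germ cells to hold down retrotransposons. RIBC2 is a protein of the inner wall of axonemal microtubules and is not itself meiotic, and ZFR2 is a zinc finger protein related to the RNA-binding protein ZFR.

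The start regions of the members whose levels are compared below are shown because SMC1B and RIBC2 start back to back, because SYCP2 also starts back to back with another gene, and because a 6-base core of the E2F site recurs in them. In GENCODE 44 lifted to GRCh37, SMC1B lies at chr22:45739944-45809500 on the minus strand and RIBC2 at chr22:45809574-45828389 on the plus strand, with starts 74 bp apart. SYCP2 (chr20:58438619-58508710, minus strand) starts 109 bp from FAM217B, and STAG3 (chr7:99775186-99812010, plus strand) starts 182 bp from GPC2. Sequences are those of RefSeq (GRCh38.p14), printed 5′ to 3′, and TCCCGC or its reverse complement GCGGGA is in capitals. RefSeq entries matched 7 of the 8 members, with 8 windows of 250 bases before to 50 after a start, since STAG3 has 2 starts; TEX19 had none. The stretches are those between both starts of the 2 back-to-back pairs (chr22:45413600-45413692 and chr20:59933638-59933778, plus strand), and 100 bases at the starts of SYCE2 (chr19:12919294-12919393, minus strand), STAG3 (second start, chr7:100177818-100177917, plus strand), MEI1 (chr22:41699405-41699504, plus strand) and ZFR2 (chr19:3869039-3869138, minus strand).
SMC1B to RIBC2: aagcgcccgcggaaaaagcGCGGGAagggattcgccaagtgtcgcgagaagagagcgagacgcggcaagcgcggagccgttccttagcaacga
SYCP2 to FAM217B: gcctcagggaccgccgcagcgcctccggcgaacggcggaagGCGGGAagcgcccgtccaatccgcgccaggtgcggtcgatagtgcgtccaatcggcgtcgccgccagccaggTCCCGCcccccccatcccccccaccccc
SYCE2: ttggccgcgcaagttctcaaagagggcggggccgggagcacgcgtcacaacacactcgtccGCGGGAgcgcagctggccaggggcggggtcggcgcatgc
STAG3: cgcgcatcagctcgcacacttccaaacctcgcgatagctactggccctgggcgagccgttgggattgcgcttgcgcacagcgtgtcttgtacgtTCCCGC
MEI1: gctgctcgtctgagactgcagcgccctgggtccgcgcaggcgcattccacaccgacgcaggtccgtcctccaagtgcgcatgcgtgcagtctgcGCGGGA
ZFR2: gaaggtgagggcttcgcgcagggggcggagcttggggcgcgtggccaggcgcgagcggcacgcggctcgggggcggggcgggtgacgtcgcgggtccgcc

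TCCCGC was found on one strand or the other in the windows of 6 of the 7 members, and the window of ZFR2 held none. The windows of SMC1B and RIBC2 overlap and hold the same sites, so these members are not separate matches. The same letters stand in 26.9% of all 35116 RefSeq windows and in 46.9% of the 16447 windows with at least 60% GC. Of the 8 windows, 7 had 62.3% to 75.3% GC and that of MEI1 had 56.7%. CACGTG, an E-box that MGA with MAX can bind, was found at STAG3 alone, as the same site in both of its overlapping windows, against 7.26% of all windows. CCAAT was found at SYCP2, RIBC2 and the first start of STAG3, against 34.6% of all windows, and TTTGAA at none, against 15.2%. These motifs do not overlap each other in their letters, and a match is a description of the sequence only.

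Before any member is described, 3 libraries need naming. In each library, the deviation of log2 CPM (counts relative to library size, with TMM scaling) from the mean of the 6 libraries of its line was taken. It was fitted against the exonic GC content of the genes, so a slope is relative to the other libraries of the same line. The slope per 10 points of GC was −0.751 in UPCI-SCC-090 JQ1 replicate 3, 0.677 in UPCI-SCC-090 DMSO replicate 2 and −0.534 in UM-SCC-47 JQ1 replicate 3, and between −0.289 and 0.453 in the other libraries. Of the members, the exons of SYCP2 hold 34.6% GC and those of SMC1B 39.9%, whereas those of the other 6 hold between 51.7% and 62.5%. Library totals lay between 20349275 and 30788657 estimated counts. Of 5 BET inhibitor response genes, 3 rose and 1 fell with JQ1 in UPCI-SCC-090 and 4 rose and 1 fell in UM-SCC-47. Over all genes tested, 7.67% rose and 20.4% fell in UPCI-SCC-090, and 16.1% rose and 25.5% fell in UM-SCC-47. HEXIM1, a BET inhibitor response gene that rose, was higher in both lines (log2 fold change 2.26 ± 0.18 in UPCI-SCC-090 and 1.83 ± 0.13 in UM-SCC-47, SE). Squamous epithelium markers reached at least 1 CPM in all 3 DMSO libraries for 8 of 9 genes in UPCI-SCC-090 and 9 of 9 in UM-SCC-47. Of these 9, with DMSO, 4 were lower and 2 higher in UPCI-SCC-090 relative to UM-SCC-47. Over all genes tested, 19.9% were lower and 23.3% higher. KRT5 averaged 7.99 ± 2.08 CPM in UPCI-SCC-090 and 607 ± 59.5 CPM in UM-SCC-47, and PKP1 averaged 965 ± 215 CPM in UPCI-SCC-090 and 99.4 ± 6.43 CPM in UM-SCC-47 (SD, n = 3 each). None of 8 spermatogenic cell markers reached 1 CPM in all libraries of any group. Their sum stayed under 0.264 CPM in each library, and DDX4, DAZL, TNP1, PRM1 and PRM2 were at 0 in all 12. With DMSO, UPCI-SCC-090 expressed 1 of 6 fibroblast, 2 of 5 immune and 0 of 3 endothelial markers, and UM-SCC-47 expressed 1, 1 and 1 of the same lists.

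With DMSO, UPCI-SCC-090 expressed 7 of the 8 members and UM-SCC-47 expressed 5, where expressed means at least 1 CPM in each of the 3 DMSO libraries. SYCP2, SYCE2, SMC1B, STAG3 and RIBC2 were expressed in both lines, and MEI1 and ZFR2 in UPCI-SCC-090 only. TEX19 was detected in both lines but stayed under 1 CPM. In UPCI-SCC-090 the number depended on the threshold, with 8 at 0.5 CPM, where TEX19 joins, and 6 at 2 CPM, where SMC1B drops out through replicate 2. It was 5 in UM-SCC-47 at each of these.

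**Figure D1:**
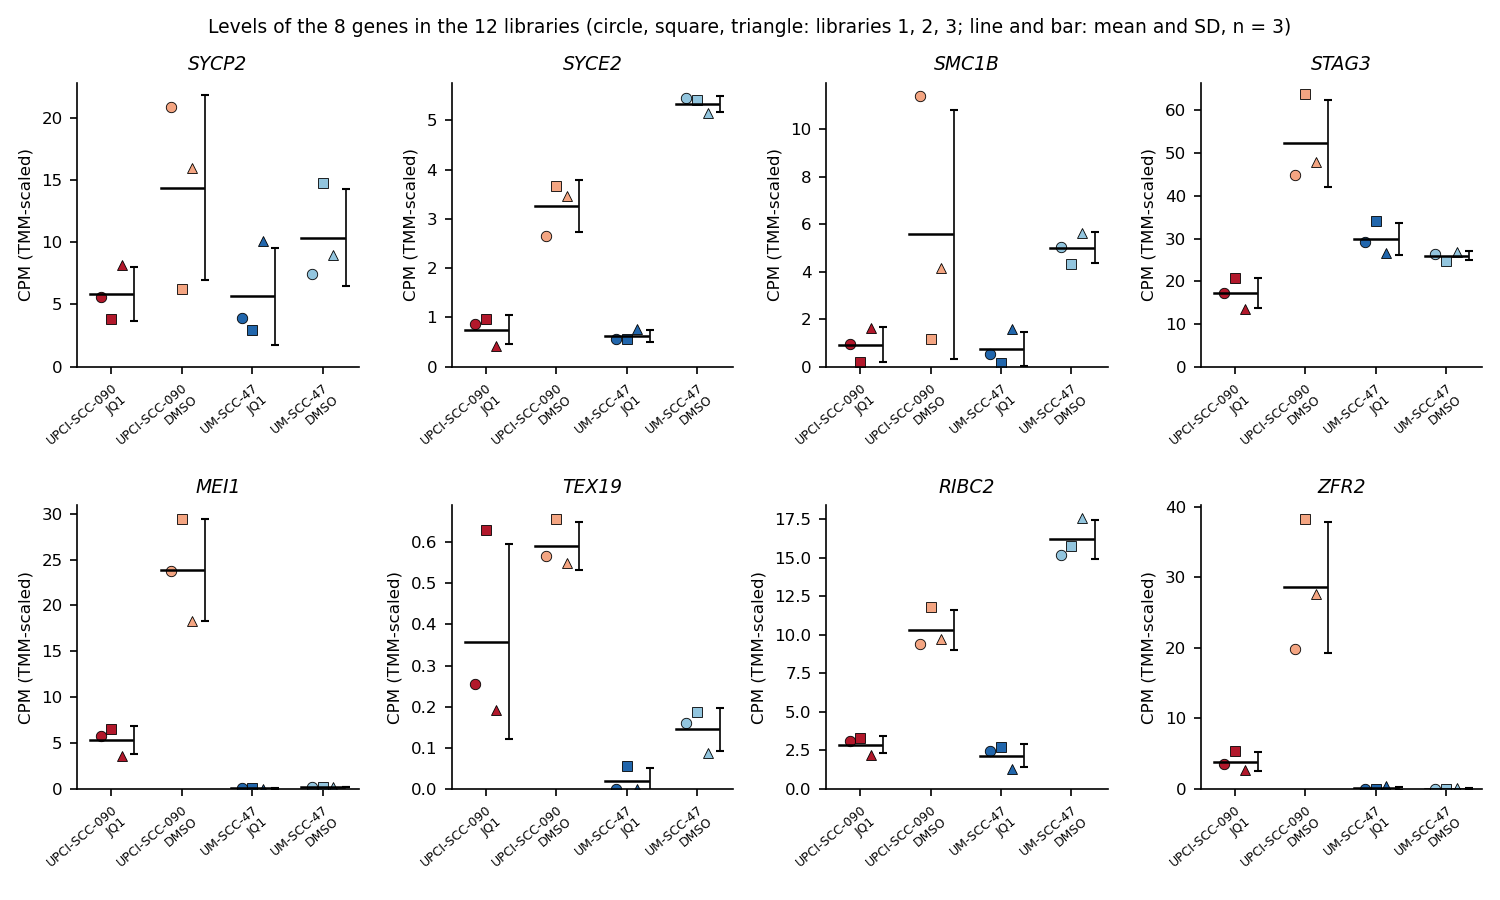
Level of each member in CPM (linear axis from 0, own scale per panel) in UPCI-SCC-090 with JQ1 and DMSO and in UM-SCC-47 with JQ1 and DMSO. Circles, squares and triangles are replicates 1, 2 and 3, and the line and bar beside them are the mean and SD of 3 libraries; MEI1 and ZFR2 stand at 18.3 CPM or above in all 3 UPCI-SCC-090 DMSO libraries and under 0.36 CPM in all 6 UM-SCC-47 libraries.

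Levels of different genes were compared per length, as CPM per kb of exon. In UPCI-SCC-090 with DMSO, STAG3 was highest at 8.51 ± 1.66 CPM per kb, followed by RIBC2 (5.64 ± 0.71), ZFR2 (4.70 ± 1.52), MEI1 (3.38 ± 0.79), SYCP2 (2.22 ± 1.15), SYCE2 (2.21 ± 0.36), SMC1B (1.31 ± 1.23) and TEX19 (0.305 ± 0.030; SD, n = 3). STAG3 and RIBC2 were the only neighbors in this order whose mean ± SD did not overlap. In UM-SCC-47 with DMSO the order was RIBC2 (8.86 ± 0.69 CPM per kb), STAG3 (4.23 ± 0.18), SYCE2 (3.62 ± 0.11), SYCP2 (1.60 ± 0.60), SMC1B (1.18 ± 0.15), TEX19 (0.0749 ± 0.0268), MEI1 (0.0313 ± 0.0048) and ZFR2 (0.00858 ± 0.00500; SD, n = 3). There only SYCP2 and SMC1B overlapped as neighbors. Set among the 20015 genes of the table with an annotated length, STAG3 stood at percentile 78.5 in UPCI-SCC-090 and RIBC2 at percentile 80.4 in UM-SCC-47, both with DMSO, so the highest members were well expressed but not among the most abundant transcripts. With the length of the longest transcript in place of all exons, SYCP2 and SYCE2 changed places in UPCI-SCC-090.

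The first comparison asks which members the lines express differently without JQ1. With DMSO, UPCI-SCC-090 had 4 of the 8 members higher and 0 lower relative to UM-SCC-47 (edgeR quasi-likelihood test over 12 libraries, adjusted p under 0.05), where 23.3% of the 14396 genes tested were higher and 19.9% lower. MEI1, TEX19 and ZFR2, all among the higher, passed the filter on low counts only through UPCI-SCC-090. A call in the lower direction was therefore hardly open to them. The lines are 1 cell line each, so the contrast is between these lines and not between kinds of tumor.

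ZFR2 differed most. It had 19.8, 38.3 and 27.7 CPM in the UPCI-SCC-090 DMSO libraries, against 0.0319, 0.0376 and 0.0873 CPM, or 1, 1 and 2 counts, in those of UM-SCC-47. The groups were far apart, with a log2 difference of 9.02 ± 1.00 (SE, edgeR adjusted p = 2.00e-05). Since UM-SCC-47 had 4 counts in all, the size is loose: the ratio of the summed counts was 561, with a 95% interval of 219 to 2061 that covers counting error only.

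MEI1 followed the same pattern. The UPCI-SCC-090 DMSO libraries had 23.7, 29.5 and 18.3 CPM, against 0.255, 0.188 and 0.218 CPM (8, 5 and 5 counts) in UM-SCC-47. The log2 difference was 6.72 ± 0.52 (SE, edgeR adjusted p = 1.29e-06), and the ratio of summed counts was 105 with a counting interval of 66.0 to 177. MEI1 and ZFR2 were thus at trace counts in UM-SCC-47 and well measured in UPCI-SCC-090.

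TEX19 was low in both lines, with 0.565, 0.657 and 0.549 CPM (17, 15 and 17 counts) in UPCI-SCC-090 and 0.160, 0.188 and 0.0873 CPM (5, 5 and 2 counts) in UM-SCC-47. The log2 difference of 1.96 ± 0.55 (SE) passed in edgeR (adjusted p = 0.0128) but not in DESeq2 (adjusted p = 0.0747), and not without UM-SCC-47 DMSO replicate 3 in edgeR (adjusted p = 0.0587). STAG3 had 44.9, 63.9 and 48.0 CPM in UPCI-SCC-090, against 26.3, 24.7 and 26.8 CPM in UM-SCC-47. It was thus expressed in both lines and 1.01 ± 0.24 higher on the log2 scale in UPCI-SCC-090 (SE, edgeR adjusted p = 0.00451), a call that was lost without the 3 libraries of steep GC slope (0.65 ± 0.26, edgeR adjusted p = 0.0583).

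The other 4 members were not called with DMSO. SYCE2 and RIBC2 leaned to UM-SCC-47, with no overlap of the groups, as held in this direction for 27.5% of all genes tested. Groups also did not overlap for the 4 members called higher, as for 30.5% of genes in that direction. Among the members that were not called, SYCE2 had 2.66, 3.68 and 3.46 CPM in UPCI-SCC-090 and 5.45, 5.42 and 5.15 CPM in UM-SCC-47 (log2 difference −0.71 ± 0.30, SE, edgeR adjusted p = 0.0797). RIBC2 had 9.38, 11.8 and 9.75 CPM in UPCI-SCC-090 and 15.2, 15.8 and 17.6 CPM in UM-SCC-47 (−0.65 ± 0.30, SE, edgeR adjusted p = 0.101). Both passed after GC correction (edgeR adjusted p = 0.00244 and 0.00537) and without the libraries of steep GC slope. GC correction also called more genes in all, 3985 lower and 4259 higher of 14137, against 2869 and 3348 of 14396. Without the libraries of steep GC slope 3436 of 14546 were lower. SYCP2 (0.47 ± 0.55) and SMC1B (0.16 ± 0.82, SE) spread too widely in UPCI-SCC-090 to be ordered, from 6.26 to 20.9 CPM and from 1.18 to 11.4 CPM over 3 libraries.

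With JQ1, UPCI-SCC-090 had 3 members higher and 1 lower relative to UM-SCC-47, where 24% of all genes tested were higher and 20.9% lower. The 3 higher members are again those that passed the filter only through UPCI-SCC-090. MEI1 (6.34 ± 0.57), ZFR2 (5.04 ± 0.88) and TEX19 (4.10 ± 0.88, log2 difference and SE) stayed on the side of UPCI-SCC-090. The sizes are loose, since the UM-SCC-47 JQ1 libraries together held 4, 7 and 1 counts of these genes. The ratios of summed counts were 84.3 (32.6 to 311) for MEI1, 34.6 (16.6 to 86.9) for ZFR2 and 21.7 (3.56 to 892) for TEX19, with 95% intervals that cover counting error only. All 7 counts of ZFR2 lay in replicate 3 and the 1 count of TEX19 in replicate 2. Without that library the UM-SCC-47 JQ1 arm is at 0, and the fitted differences of 9.45 for ZFR2 and 6.20 for TEX19 then measure no size. STAG3 stood the other way round than with DMSO, with 17.3, 20.7 and 13.6 CPM in UPCI-SCC-090 and 29.1, 34.0 and 26.6 CPM in UM-SCC-47 (−0.80 ± 0.24, SE, edgeR adjusted p = 0.0162). That call rested on UM-SCC-47 JQ1 replicate 2, without which the edgeR adjusted p was 0.0550, and in a fit on the 6 JQ1 libraries alone it was 0.0768. SYCP2, SYCE2, SMC1B and RIBC2 differed by 0.05 to 0.40 on the log2 scale and were not called.

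**Figure D2:**
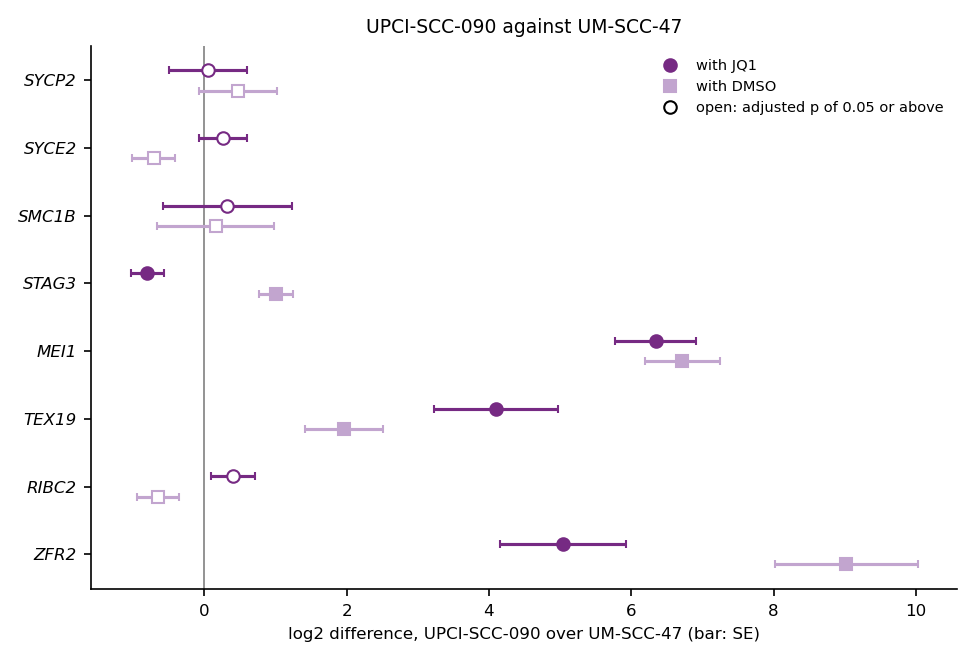
Log2 difference in level between UPCI-SCC-090 and UM-SCC-47 (x axis, UPCI-SCC-090 over UM-SCC-47, bars are the SE) for the 8 members with JQ1 (circles) and with DMSO (squares), filled where the edgeR adjusted p was under 0.05. MEI1, TEX19 and ZFR2 lie right of 0 with both treatments, and STAG3 lies left of 0 with JQ1 (−0.80) and right of 0 with DMSO (1.01).

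The second comparison asks what JQ1 did to the members within each line. In UPCI-SCC-090 JQ1 lowered SYCE2, STAG3, MEI1, RIBC2 and ZFR2, which is 5 of 8 members tested, and raised 0, where 20.4% of the 13150 genes tested fell and 7.67% rose. In UM-SCC-47 it lowered SYCE2, SMC1B and RIBC2, which is 3 of 5 members tested, and raised 0, where 25.5% of the 13440 genes tested fell and 16.1% rose. MEI1, TEX19 and ZFR2 did not pass the filter on low counts in UM-SCC-47 and have no test there. The median log2 fold change of the members tested was −2.10 in UPCI-SCC-090 and −2.74 in UM-SCC-47, against −0.14 and −0.03 over all genes tested. Without UPCI-SCC-090 JQ1 replicate 1, the count in UPCI-SCC-090 was 3, as STAG3 and RIBC2 missed the threshold. The split of calls over all genes depended on the scaling. In UPCI-SCC-090 there were 2680 lower and 1009 higher with TMM, 3060 and 3321 with GC correction, and 3069 and 635 with library size alone, and in UM-SCC-47 3431 and 2163, 3293 and 3491, and 4589 and 1456. RLE scaling gave 1755 and 1287 in UPCI-SCC-090 and moved the median of all genes there to 0.14. Library size alone moved the median of all genes to −0.38 in UPCI-SCC-090 and −0.28 in UM-SCC-47.

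SYCE2, of the central element, fell in both lines. It had 0.873, 0.968 and 0.422 CPM with JQ1 in UPCI-SCC-090, against 2.66, 3.68 and 3.46 CPM with DMSO, and the groups did not overlap (log2 fold change −2.24 ± 0.34, SE, edgeR adjusted p = 0.00568). In UM-SCC-47 it had 0.557, 0.562 and 0.758 CPM with JQ1, against 5.45, 5.42 and 5.15 CPM with DMSO (−3.10 ± 0.21, SE, edgeR adjusted p = 0.000229). SYCE2 lies at chr19:13009600-13030107 and shares 15422 bp with GCDH on the other strand. GCDH, a mitochondrial dehydrogenase gene, moved the opposite way, by 0.99 ± 0.31 in UPCI-SCC-090 (SE, edgeR adjusted p = 0.0551) and 1.05 ± 0.20 in UM-SCC-47 (SE, edgeR adjusted p = 0.00711). The kit keeps strand, and whether the counting used strand was not stated.

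RIBC2 fell in both lines too. With JQ1 it had 3.09, 3.29 and 2.22 CPM in UPCI-SCC-090, against 9.38, 11.8 and 9.75 CPM with DMSO (log2 fold change −1.96 ± 0.28, SE, edgeR adjusted p = 0.00501). In UM-SCC-47 it had 2.49, 2.70 and 1.31 CPM with JQ1, against 15.2, 15.8 and 17.6 CPM with DMSO (−2.91 ± 0.30, SE, edgeR adjusted p = 0.000749). No library of either JQ1 group reached the lowest DMSO library of its line. In UPCI-SCC-090 the call was lost without JQ1 replicate 1 (−1.88, edgeR adjusted p = 0.0565). FOXJ1, the master regulator of motile cilia, averaged 0.0187 ± 0.0324 CPM with JQ1 in UM-SCC-47, against 5.33 ± 0.51 CPM with DMSO (SD, n = 3 each), so it moved with RIBC2 there, and its part in the fall of RIBC2 was not tested. FOXJ1 is 1 of 6 multiciliated cell markers, of which 4 were tested in UM-SCC-47, where 1 fell and 1 rose with JQ1. The 6 markers summed to 10.4 to 17.0 CPM with JQ1 in UM-SCC-47, against 16.2 to 21.9 CPM with DMSO. In UPCI-SCC-090 none of the 6 was expressed, and they summed to 0.473 to 0.823 CPM with JQ1, against 0.840 to 1.71 CPM with DMSO. FOXJ1 was near 0 in UPCI-SCC-090 with DMSO (0.0257 ± 0.0229 CPM, SD, n = 3). Of the other 15 axonemal microtubule inner proteins listed, 7 were tested in UM-SCC-47, where CFAP45 fell and 0 rose. Over all genes tested in UM-SCC-47, 25.5% fell and 16.1% rose with JQ1.

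SMC1B, which shares its start region with RIBC2, had 0.945, 0.194 and 1.65 CPM with JQ1 in UPCI-SCC-090, against 11.4, 1.18 and 4.17 CPM with DMSO. DMSO replicate 2, one of the libraries of steep GC slope, lay below JQ1 replicate 3, so the groups overlapped and the change was not called (log2 fold change −2.64 ± 1.06, SE, edgeR adjusted p = 0.116). In UM-SCC-47 SMC1B fell, with 0.520, 0.169 and 1.57 CPM with JQ1, against 5.04, 4.32 and 5.63 CPM with DMSO (−2.74 ± 0.65, SE, edgeR adjusted p = 0.0161). There the edgeR adjusted p was 0.0508 without DMSO replicate 1, 0.0520 without DMSO replicate 3 and 0.0708 without JQ1 replicate 1. With GC correction SMC1B passed in UPCI-SCC-090 at almost the same size (−2.64 ± 0.52, SE, edgeR adjusted p = 0.00657), and DESeq2 called it too (adjusted p = 0.0153).

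SYCP2, of the lateral element, was not called in either line. It had 5.56, 3.82 and 8.17 CPM with JQ1 in UPCI-SCC-090, against 20.9, 6.26 and 15.9 CPM with DMSO (log2 fold change −1.37 ± 0.59, SE, edgeR adjusted p = 0.137). In UM-SCC-47 it had 3.94, 2.92 and 10.1 CPM with JQ1, against 7.43, 14.7 and 8.94 CPM with DMSO (−0.89 ± 0.52, SE, edgeR adjusted p = 0.220). The overlap again lay in libraries of steep GC slope: UM-SCC-47 JQ1 replicate 3 lay above 2 of the DMSO libraries and UPCI-SCC-090 DMSO replicate 2 below JQ1 replicate 3. With GC correction SYCP2 was lower in both lines, by −1.14 ± 0.29 (SE) in UPCI-SCC-090 with an edgeR adjusted p of 0.0180 and by −1.29 ± 0.31 (SE) in UM-SCC-47 with an edgeR adjusted p of 0.0134. Without the libraries of steep GC slope it was also lower in both (−1.90 ± 0.51, edgeR adjusted p = 0.0166, and −1.48 ± 0.34, edgeR adjusted p = 0.00957, in the same order of lines). Those are the libraries in which the overlap lay, so leaving them out favored a lower call beforehand. No conclusion on SYCP2 is drawn from that fit.

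SMC1B and RIBC2 have starts 74 bp apart and exons of unlike GC content (39.9% and 51.7%), so their levels can be set against each other within a library. The ratio of SMC1B to RIBC2 CPM was 0.306, 0.0588 and 0.741 in the UPCI-SCC-090 JQ1 libraries, 1.21, 0.100 and 0.427 with DMSO, and 0.209, 0.0625 and 1.19 with JQ1 against 0.332, 0.274 and 0.320 with DMSO in UM-SCC-47. It was over 0.7 in the 3 libraries with slopes of −0.289, −0.534 and −0.751 and at 0.100 or below in the 3 with slopes of 0.240, 0.453 and 0.677. The ratio did not separate JQ1 from DMSO in either line. What part the GC trend has in these levels was not tested further. As a description, over the 12 libraries, log2 CPM of SMC1B had r = 0.90 with SYCP2, the other AT-rich member, and r = 0.67 with RIBC2.

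**Figure D3:**
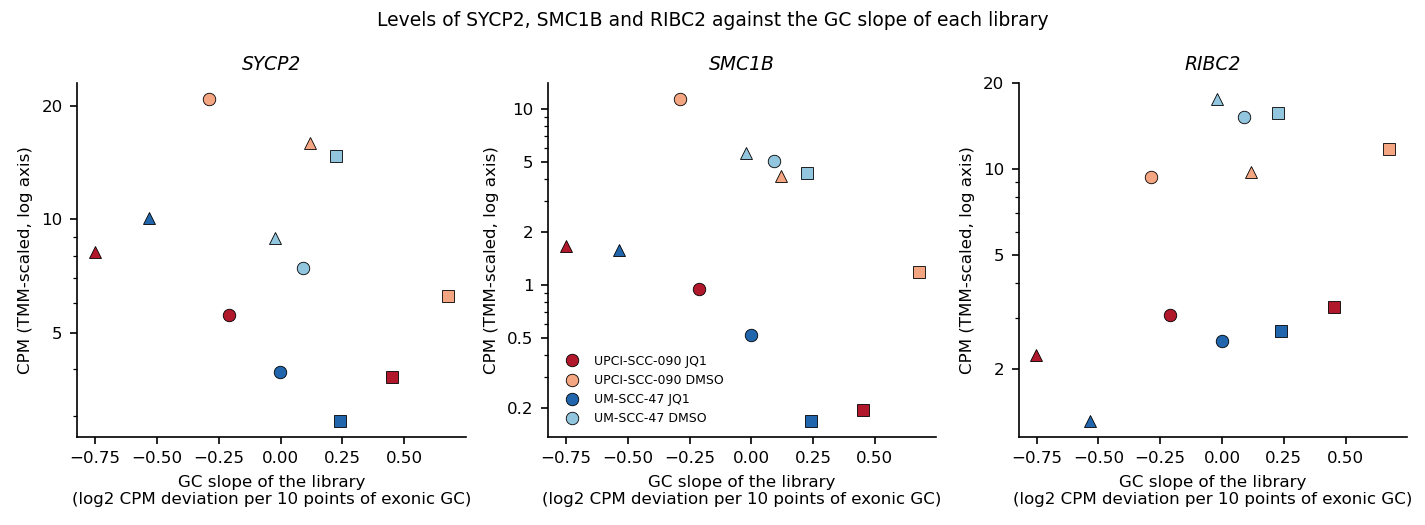
Level of SYCP2, SMC1B and RIBC2 (CPM, log axis) against the GC slope of each library (log2 CPM deviation per 10 points of exonic GC), colored by group, with circles, squares and triangles for replicates 1, 2 and 3. Within each group SMC1B is lowest in the library of the highest slope, while RIBC2 keeps JQ1 and DMSO libraries of a line apart at every slope.

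STAG3, the meiotic partner of the cohesin ring, responded differently in the 2 lines. With JQ1 it fell in UPCI-SCC-090, with 17.3, 20.7 and 13.6 CPM, against 44.9, 63.9 and 48.0 CPM with DMSO, and every JQ1 library lay below every DMSO library (log2 fold change −1.72 ± 0.25, SE, edgeR adjusted p = 0.00521). In UM-SCC-47 it was not called and the groups overlapped, with 29.1, 34.0 and 26.6 CPM with JQ1, against 26.3, 24.7 and 26.8 CPM with DMSO (0.19 ± 0.15, SE, edgeR adjusted p = 0.350). The sign in UM-SCC-47 depended on the scaling, with −0.065 for library size alone and a called rise of 0.41 ± 0.12 with GC correction (SE, edgeR adjusted p = 0.0247). The fall in UPCI-SCC-090 was −1.24 (edgeR adjusted p = 0.0700) without the libraries of steep GC slope and −1.59 (edgeR adjusted p = 0.0695) without JQ1 replicate 1. STAG3 was the only member called for a difference in response between the lines, by −1.81 ± 0.33 (UPCI-SCC-090 minus UM-SCC-47, SE, edgeR adjusted p = 0.00888), where 6.56% of the 14396 genes tested differed, 3.63% in this direction and 2.93% in the other. For the other members a difference is not excluded. RIBC2 had 1.05 ± 0.43 (SE, edgeR adjusted p = 0.192) and SYCE2 0.97 ± 0.46 (SE, edgeR adjusted p = 0.268). MEI1, TEX19 and ZFR2 had too few counts in UM-SCC-47 to size a response there.

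GPC2, a glypican whose start lies 182 bp from that of STAG3 on the other strand, showed the same contrast. Its log2 fold change with JQ1 was −1.16 ± 0.37 in UPCI-SCC-090 (SE, edgeR adjusted p = 0.0612) and 0.95 ± 0.21 in UM-SCC-47 (SE, edgeR adjusted p = 0.0114). The difference of the responses was −1.99 ± 0.49 (SE, edgeR adjusted p = 0.0351), and with DMSO GPC2 was 1.89 ± 0.36 higher in UPCI-SCC-090 (SE, edgeR adjusted p = 0.00105). STAG3 has near-identical partial copies elsewhere on chromosome 7, and Salmon divides reads among such copies, so its counts are uncertain to that extent.

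MEI1 and ZFR2 could be followed only in UPCI-SCC-090. MEI1 (chr22:42095507-42195460) had 5.82, 6.49 and 3.61 CPM with JQ1, against 23.7, 29.5 and 18.3 CPM with DMSO (log2 fold change −2.30 ± 0.33, SE, edgeR adjusted p = 0.00503). ZFR2 (chr19:3804022-3869036) had 3.60, 5.37 and 2.65 CPM with JQ1, against 19.8, 38.3 and 27.7 CPM with DMSO, the steepest fall among the members in this line (−3.01 ± 0.37, SE, edgeR adjusted p = 0.00408). Both stood apart from DMSO in all 3 libraries. In UM-SCC-47 MEI1 had 3, 1 and 0 counts with JQ1, against 8, 5 and 5 with DMSO, and ZFR2 had 0, 0 and 7 with JQ1, against 1, 1 and 2 with DMSO. A count of 0 in these libraries allows up to 3 counts, or 0.112 to 0.169 CPM, counting error only. The difference of the ZFR2 response between the lines, −3.98 ± 1.38 (SE), was not called by edgeR (adjusted p = 0.123) and was called by DESeq2 (adjusted p = 0.0135). It rested on the 7 counts of UM-SCC-47 JQ1 replicate 3, without which it was 0.63.

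TEX19 (chr17:80317123-80321651) was not called in UPCI-SCC-090, with 7, 13 and 5 counts (0.254, 0.629 and 0.192 CPM) with JQ1, against 17, 15 and 17 counts with DMSO (log2 fold change −0.89 ± 0.43, SE, edgeR adjusted p = 0.182). JQ1 replicate 2 lay within the DMSO range. In UM-SCC-47 it had 0, 1 and 0 counts with JQ1, against 5, 5 and 2 with DMSO. The ratio of summed counts, JQ1 over DMSO, was 0.104 there, with a 95% counting interval of 0.00245 to 0.707 that leaves out the spread between libraries.

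Counted without a test, all 3 JQ1 libraries lay below all 3 DMSO libraries for 5 members in UPCI-SCC-090 (SYCE2, STAG3, MEI1, RIBC2 and ZFR2) and for 5 in UM-SCC-47 (SYCE2, SMC1B, MEI1, TEX19 and RIBC2), where this held for 24.4% and 32.5% of the genes tested in the same lines. MEI1 and TEX19 were in this count in UM-SCC-47 at 8 counts or fewer a library.

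**Figure D4:**
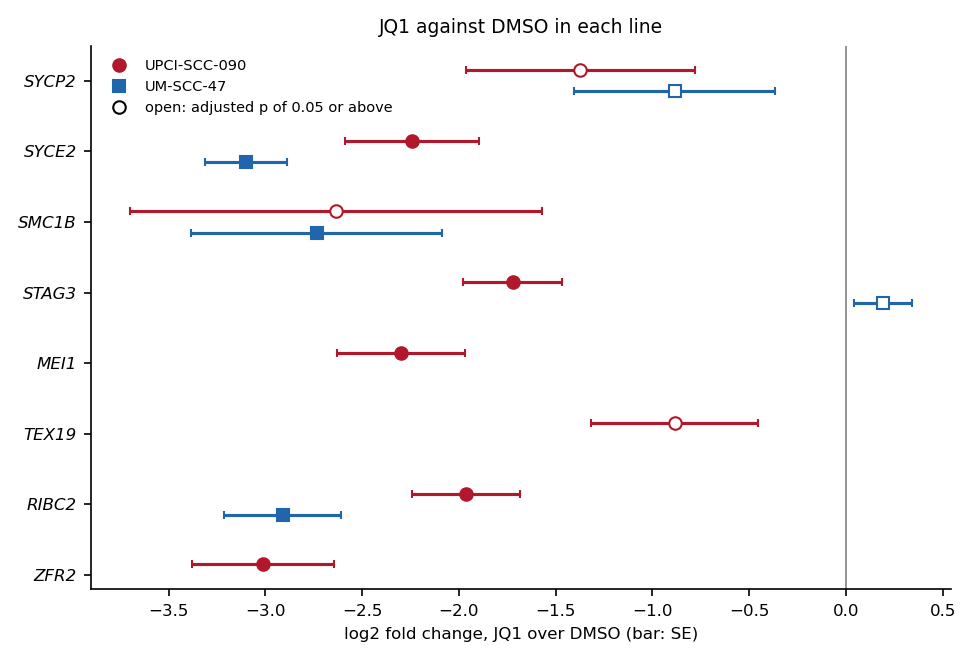
Log2 fold change of JQ1 over DMSO (x axis, bars are the SE) for the members tested in UPCI-SCC-090 (circles) and UM-SCC-47 (squares), filled where the edgeR adjusted p was under 0.05. All points lie left of 0 except STAG3 in UM-SCC-47 (0.19, or −0.065 when scaled by library size alone); MEI1, TEX19 and ZFR2 have no point for UM-SCC-47.

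Genes that share start regions or lie beside the members were looked at in the same fits. FAM217B, which starts 109 bp from SYCP2, was not called (log2 fold change 1.97 ± 0.99, SE, in UPCI-SCC-090 with an edgeR adjusted p of 0.196, and 0.66 ± 0.42 in UM-SCC-47 with one of 0.255). FAM118A, 2108 bp beyond the end of SMC1B, stayed near 0 (0.03 ± 0.27 and −0.15 ± 0.15, SE, in the same order of lines). The transcribed pseudogene C22orf46P, which ends 1367 bp before MEI1 on the same strand, fell in both lines (log2 fold change −2.59 ± 0.51, SE, in UPCI-SCC-090 with an edgeR adjusted p of 0.0120, and −2.09 ± 0.33 in UM-SCC-47 with one of 0.00340).

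The rest of the meiotic machinery was expressed in part. Of the 8 proteins of the synaptonemal complex, UPCI-SCC-090 expressed 3 with DMSO and UM-SCC-47 expressed 2. SYCP1, which forms the transverse filaments, averaged 0.0146 CPM in UPCI-SCC-090 and was at 0 in UM-SCC-47, SYCP3 averaged 0.0843 and 0.0125 CPM, and SYCE1 was at 0 in all 12 libraries. C14orf39, of the central element, averaged 1.98 ± 0.60 CPM in UPCI-SCC-090 (SD, n = 3) and was at 0 in all 6 UM-SCC-47 libraries.

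Of the 4 meiotic cohesin subunits, 3 were expressed with DMSO in each line and RAD21L1 was at 0. REC8, the meiotic kleisin, averaged 188 ± 49.7 CPM in UPCI-SCC-090 and 1.75 ± 0.19 CPM in UM-SCC-47 (SD, n = 3 each, DMSO), a log2 difference of 6.74 ± 0.46 (SE, edgeR adjusted p = 4.96e-07). REC8 was not called with JQ1 in UPCI-SCC-090 (135.8 ± 46.9 CPM with JQ1, SD, n = 3) and fell in UM-SCC-47 (−1.41 ± 0.42, SE, edgeR adjusted p = 0.0372). Of 14 somatic cohesin subunits and regulators, 2 fell in UPCI-SCC-090 and 5 in UM-SCC-47, and 0 rose in either. Over all genes tested, 20.4% fell in UPCI-SCC-090 and 25.5% in UM-SCC-47. All 14 of this list were expressed in both lines with DMSO.

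Of the 10 listed genes of the meiotic axis and of double-strand break formation other than MEI1, 2 were tested in UPCI-SCC-090 and 3 in UM-SCC-47. All of these fell with JQ1, as did 20.4% and 25.5% of all genes tested in the same order of lines. TRIP13, the ATPase that removes HORMA proteins from chromosome axes, averaged 10.1 ± 1.53 CPM with JQ1 in UPCI-SCC-090, against 51.6 ± 4.58 CPM with DMSO, and 21.1 ± 3.35 CPM in UM-SCC-47, against 117 ± 8.20 CPM (SD, n = 3 each). TRIP13 also acts in the mitotic checkpoint. HORMAD1 was at 0 in all 6 UPCI-SCC-090 libraries and averaged 0.209 ± 0.054 CPM with JQ1 in UM-SCC-47, against 1.51 ± 0.34 CPM with DMSO (SD, n = 3 each). It passed the filter on low counts in UM-SCC-47 through its DMSO libraries, so a call in the higher direction was hardly open to it.

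Of the 16 genes of meiotic recombination, 11 were expressed with DMSO in each line. Relative to UM-SCC-47, UPCI-SCC-090 then had 6 of 12 tested higher and 3 lower, HSF2BP and MSH5 among the lower. SHOC1, among the higher, averaged only 0.279 CPM in UM-SCC-47 with DMSO, so a lower call was hardly open to it. Over all genes tested, 23.3% were higher and 19.9% lower in that comparison, and JQ1 lowered 20.4% in UPCI-SCC-090 and 25.5% in UM-SCC-47. With JQ1, 12 genes of the list were tested in UPCI-SCC-090, where 6 fell and 0 rose, and 11 in UM-SCC-47, where 8 fell and 1 rose. The median log2 fold changes were −1.16 and −1.52, against −0.14 and −0.03 over all genes tested in the same lines. BRME1 and HSF2BP, whose products bring recombinases to meiotic breaks in mice, fell in both lines. BRME1 changed by −2.45 ± 0.37 in UPCI-SCC-090 (SE, edgeR adjusted p = 0.00545) and −3.26 ± 0.21 in UM-SCC-47 (SE, edgeR adjusted p = 0.000187). HSF2BP changed by −1.80 ± 0.35 in UPCI-SCC-090 (SE, edgeR adjusted p = 0.0114) and −2.41 ± 0.25 in UM-SCC-47 (SE, edgeR adjusted p = 0.000779). CCNB1IP1 rose in UM-SCC-47 (0.75 ± 0.21, SE, edgeR adjusted p = 0.0298).

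Of the 16 germ cell and piRNA genes other than TEX19, DDX4, DAZL, ASZ1 and STRA8 were at 0 in all 12 libraries. With JQ1, 0 of the 5 tested changed in UPCI-SCC-090, and 2 of the 4 tested, TDRD9 and PIWIL2, fell in UM-SCC-47, where 25.5% of all genes tested fell. MOV10L1, a piRNA pathway helicase, averaged 21.6 ± 4.26 CPM in UPCI-SCC-090 and 0.744 ± 0.105 CPM in UM-SCC-47 (SD, n = 3 each, DMSO), a log2 difference of 4.85 ± 0.35 (SE, edgeR adjusted p = 7.24e-07). In this list 3 of 6 tested were higher in UPCI-SCC-090 with DMSO and 1 was lower, PIWIL4 (−1.69 ± 0.42, SE, edgeR adjusted p = 0.00676). TDRD5 and TEX15, both among the higher, averaged only 0.312 and 0.0125 CPM in UM-SCC-47 with DMSO. A call in the lower direction was therefore hardly open to them. Over all genes tested, 23.3% were higher and 19.9% lower. Of 15 cancer-testis antigens, 2 were expressed in UPCI-SCC-090 with DMSO, MAGEA3 at 53.7 ± 9.95 CPM and PRAME at 56.4 ± 9.62 CPM (SD, n = 3), and 0 in UM-SCC-47.

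Of the 22 silencers of germ line genes, 21 were tested in each line, and 7 fell and 1 rose in UPCI-SCC-090 and 8 fell and 0 rose in UM-SCC-47. Over all genes tested, 20.4% fell and 7.67% rose in UPCI-SCC-090, and 25.5% fell and 16.1% rose in UM-SCC-47. DNMT1, the maintenance DNA methyltransferase, changed by −2.41 ± 0.37 in UPCI-SCC-090 (SE, edgeR adjusted p = 0.00560) and by −2.06 ± 0.21 in UM-SCC-47 (SE, edgeR adjusted p = 0.000715). DNMT3B and EHMT2 fell in both lines, and MAX rose in UPCI-SCC-090 (0.90 ± 0.21, SE, edgeR adjusted p = 0.0217). Of 11 further genes known to be raised in HPV+ HNSCC, 5 of 10 tested fell in UPCI-SCC-090 and 7 of 9 in UM-SCC-47, among them CDKN2C and MCM2 in both lines.

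Proliferation genes fell with JQ1 in both lines, as did SYCE2 and RIBC2 among the members. Of 15 mitotic genes, 12 fell in UPCI-SCC-090 and 13 in UM-SCC-47, and their summed level was 328 to 451 CPM with JQ1, against 2385 to 2646 CPM with DMSO, in UPCI-SCC-090 and 151 to 215 CPM, against 2051 to 2115 CPM, in UM-SCC-47. Of 15 S phase genes, 11 and 13 fell in the same order of lines. Over all genes tested, 20.4% fell in UPCI-SCC-090 and 25.5% in UM-SCC-47. The part of the proliferation genes in the fall of members was not tested, and in bulk RNA fewer cells of a kind and less RNA per cell cannot be told apart.

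The genes whose profile over the 12 libraries was most like that of a member are given as a description, by Pearson r of log2 CPM; the 12 points share 2 lines and 1 treatment. For SYCE2 they were GTSE1 (r = 0.99), ADGRE5 and PER2, and for RIBC2 PIF1 (r = 0.99), HOXA4 and RNF157. SMC1B ran with CDCA2 (r = 0.98), COL5A2 and DEPDC1, and SYCP2 with SASS6 (r = 0.96), KNL1 and HS6ST2. MEI1 ran with MRAP2 (r = 0.99), CECR2 and CX3CL1, ZFR2 with CDHR1 (r = 0.99), AXIN2 and DCLK1, STAG3 with TUBB2B (r = 0.97) and TLE1, and TEX19 with ZBTB39 (r = 0.98), FANCC and PPP5C. Among the members themselves, SYCE2 and RIBC2 had r = 0.96 and MEI1 and ZFR2 r = 0.95.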

How the data were processed

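RNA of 2 HPV+ HNSCC lines was sequenced in 12 libraries, from stranded total RNA depleted of ribosomal RNA. The authors ran Salmon and deposited unscaled estimated counts by gene, of which 28.7% are not whole (tolerance 0.01). Versions in the processing notes of the submitters are 0.8.2 for Salmon and 1.28.0 for DESeq2; the paper names other versions. Index and build: not given in the sources used here. Each library was run by the authors on more than 1 lane, and the deposited table does not keep the lanes apart.

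Estimated counts were rounded and tested with edgeR 4.0.16 in R 4.3.3, using filterByExpr (minimum count 10, minimum total count 15), TMM scaling and the quasi-likelihood F test. JQ1 was compared with DMSO in each line over its 6 libraries. The lines, and the difference of their responses, were compared in 1 fit over 12 libraries. A gene was called where its p, adjusted by Benjamini-Hochberg over all genes tested, was under 0.05, and the SE is the size of the log2 fold change over the root of F. CPM values use the 12-library factors, so they can differ slightly from the folds of the fits per line.

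Symbols, positions and GC content came from GENCODE 44 lifted to GRCh37, in which 20015 of 20738 IDs were found and 723 were not. Promoter windows came from RefSeq (GRCh38.p14). In the lists PECAM1, SSX4, TCAM1P and UHRF1 could not be matched. The 8 members are always named. Per list and comparison up to 4 called genes in each direction, those of smallest adjusted p, could be named, as could the 3 genes most like each member and neighbors within 50 kb; the text names part of these, and list genes that are silent in a line. The members and the 20 lists were chosen with earlier results of these data known. Some list genes are not reported here. Intervals of 95% on summed counts and the limit of 3 counts for a count of 0 cover counting error only. The alternatives were RLE, upper-quartile and library-size scaling, no filter, DESeq2 1.42.0, a replicate block, GC correction, other sets of libraries in the fit, and leaving out libraries. The edgeR steps were tested on simulated data.

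Replicates differed by more than sampling noise (chi-square per gene 8.68 to 449), so none was counted as a duplicate. Replicate numbers did not pair the samples: JQ1 and DMSO libraries of the same number deviated together with r = 0.095, 0.789 and 0.207 in UPCI-SCC-090 and −0.147, 0.199 and 0.429 in UM-SCC-47.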

Additional observations from a re-analysis of the deposited data

Results flagged for a closer look

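The response of STAG3 to JQ1 differed between the lines by −1.81 on the log2 scale (UPCI-SCC-090 minus UM-SCC-47, edgeR adjusted p = 0.00888). It fell in all 3 JQ1 libraries of UPCI-SCC-090 relative to DMSO and overlapped with DMSO in UM-SCC-47, and what lies behind this difference was not tested.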

How the results depend on the processing

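Of 631 values of members recomputed under the alternatives, 560 kept their direction and side of the threshold, 30 passed the threshold only under an alternative, 11 lost it and 30 changed sign; the cause was not tested. In UPCI-SCC-090 the members lower with JQ1 numbered 7 with the replicate block, alone or with GC correction, against 5, as SYCP2 and SMC1B joined. In UM-SCC-47 they numbered 3 with the replicate block and 4 when it was joined with GC correction, and the members higher 0 with either. GC correction alone also gave 7 members lower in UPCI-SCC-090, with SYCP2 and SMC1B, 4 lower in UM-SCC-47, with SYCP2, and 1 higher in UM-SCC-47 (STAG3). Over all genes, GC correction called 3060 of 12929 lower in UPCI-SCC-090, against 2680 of 13150 in the fit reported. In UM-SCC-47 it called 3293 lower and 3491 higher of 13222, against 3431 and 2163 of 13440. The replicate block called 3141 of 13150 lower in UPCI-SCC-090, and 3090 of 12929 when joined with GC correction. Without the libraries of the steepest GC trends 6 members were lower in UPCI-SCC-090 and 4 in UM-SCC-47. SYCP2 is in both counts, and its overlap had lain in the libraries left out. Over all genes, 2194 of 13261 were then lower in UPCI-SCC-090 and 3640 of 13740 in UM-SCC-47. Replicate numbers did not pair the samples, so the block is given here only, and it left the other counts of members as they were except where stated. Leaving out 1 library gave 3 to 5 members lower in UPCI-SCC-090.

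Between the lines with DMSO, the members lower in UPCI-SCC-090 numbered 1 with upper-quartile factors or library size, 2 with GC correction, with the replicate block and GC correction, in a fit on the 6 DMSO libraries and without the libraries of the steepest GC trends, and 0 to 1 with 1 library left out, against 0 in the fit reported (0 also with the replicate block alone). Over all genes, 3118 of 14396 were lower with upper-quartile factors, 3015 of 14396 with library size and 3985 of 14137 with GC correction. The block with GC correction gave 4166 of 14137, the fit on the 6 DMSO libraries 3571 of 14108, and the fit reported 2869 of 14396. Without the libraries of the steepest GC trends 3436 of 14546 were lower. With JQ1 the members lower in UPCI-SCC-090 numbered 0 in a fit on the 6 JQ1 libraries and 0 to 1 with 1 library left out, against 1. Over all genes, 2393 of 13303 were lower in the fit on 6 libraries, against 3012 of 14396. The members whose response differed between the lines numbered 2 with DESeq2 (STAG3 and ZFR2) and 3 with GC correction (SYCE2, STAG3 and RIBC2), against 1. Calls over all genes changed too. They were 586 lower and 439 higher of 15152 with DESeq2 and 1446 and 1265 of 14137 with GC correction, against 523 and 422 of 14396.

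Values that changed sign were near 0 or widely spread, and none of them was called with the other sign. With library size alone, STAG3 in UM-SCC-47 had −0.065 on the log2 scale. Between the lines with DMSO, SYCP2 had −0.052 with GC correction, −0.0028 with the replicate block and GC correction, and −0.12 to 0.83 with 1 library left out, and SMC1B had −0.018 with GC correction, −0.29 with the replicate block, −0.18 with both, and −1.10 to 0.64 with 1 library left out. With JQ1, SYCP2 had −0.015 with RLE, −0.040 with upper-quartile factors, −0.048 with library size alone, −0.0099 with DESeq2 and −0.14 in the fit on 6 libraries. With 1 library left out, SYCP2 then had −0.26 to 0.46, SMC1B −0.35 to 1.10 and RIBC2 −0.22 to 0.59. The difference of the responses was 0.14 for SYCP2 with GC correction and 0.046 with the replicate block and GC correction, and 1.31 for ZFR2 without the libraries of the steepest GC trends. With 1 library left out it was −0.78 to 0.16 for SYCP2, −0.52 to 1.24 for SMC1B, −1.07 to 0.67 for MEI1 and −4.65 to 0.63 for ZFR2. MEI1, TEX19 and ZFR2 had 8 counts or fewer in each UM-SCC-47 library, so their changes there were not sized by a fit.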
